A study of Mus musculus with 6 samples.

Results

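The genes described here are the matrix metalloproteinases (MMPs), the ADAMTS proteases and the tissue inhibitors of metalloproteinases (TIMPs) as measured in mouse tibia. They were chosen by name, as the protein-coding genes of the GENCODE M21 annotation called *Mmp*, *Adamts* or *Timp* with a number. That rule uses no measured value, but the set was chosen with earlier results of these data known. This gave 45 genes of the 55401 gene identifiers counted, made up of 22 *Mmp*, 19 *Adamts* and 4 *Timp* genes. *Mmp1a* is annotated as a polymorphic pseudogene and was not a member, with 10 to 26 counts per library.

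Polyadenylated RNA of whole tibias was sequenced in male mice aged 8 weeks, with 3 libraries from Atrx-cKO and 3 from control animals. Atrx-cKO mice had the genotype Osterix-Cre; Atrxf/y, in which a Cre recombinase under *Osterix* (*Sp7*) regulatory sequences acts on a floxed X-linked *Atrx* gene in osteoblast progenitors, and doxycycline held the recombinase back from conception to 3 weeks of age. Controls were Atrxf/y, with the same floxed allele and no Cre, so the Cre transgene and the loss of *Atrx* cannot be told apart in this comparison. The labels number the replicates without naming the animals, so the p-values measure the spread between these libraries.

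MMPs and ADAMTS proteases are zinc-dependent enzymes that cut the matrix outside the cell, and most are made as inactive precursors that must lose a propeptide. MMPs include enzymes that cut fibrillar collagen, enzymes that act on denatured collagen and forms anchored in the cell membrane. ADAMTS proteases carry thrombospondin repeats and act on proteoglycans, procollagens and microfibrils, and TIMPs block the active sites of these enzymes. In bone, MMPs take part in the removal of growth plate cartilage and in the turnover of mineralized matrix by osteoblasts, osteocytes and osteoclasts.

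Each library held 50977777 to 70571655 reads counted on genes. *Atrx* itself had 153, 166 and 171 CPM (counts relative to library size, scaled with TMM factors) in Atrx-cKO replicates 1, 2 and 3 and 174, 166 and 165 CPM in the controls, a whole-gene count in a whole bone that cannot check the genotypes. Marker genes of osteoblasts were abundant in every library, with summed levels of 58843 to 100859 CPM, and marrow was present too, with neutrophil markers summing to 7716 to 13493 CPM. Skeletal muscle markers summed to 11247 CPM in control replicate 3 and to 659 to 2256 CPM in the other 5 libraries, so this library stands apart. In such bulk RNA, fewer cells of a type and less RNA per cell cannot be told apart.

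Of the 45 genes, 9 lie side by side on chromosome 9 over 427 kb, from 7272514 to 7699585 of GRCm38, in the order *Mmp13*, *Mmp12*, *Mmp1b*, *Mmp3*, *Mmp10*, *Mmp8*, *Mmp27*, *Mmp20* and *Mmp7*. They share a gene cluster but not a level in tibia. Promoter sequences of the RefSeq table (GRCm38.p6) were found for 31 of the 45 genes, in 34 entries, and all 9 cluster genes had an entry. The 250 bases before each start were searched on both strands for the AP-1 motif TGANTCA, the RUNX motif TGNGGTT and the TATA box TATAAA. The AP-1 letters were found in 7 of the 9 cluster genes and in 0 of the other 22 genes with an entry, and 6.75% of all 32851 promoters in the table hold them. For RUNX the numbers were 4 of 9 and 2 of 22 (12.6% of all promoters), and for TATA 6 of 9 and 2 of 22 (12.4% of all promoters). A match is a run of letters and no evidence of a bound site.

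The last 150 bases before the start are shown for 6 cluster genes, because they set the 2 abundant genes, *Mmp13* and *Mmp8*, beside neighbors whose mean was under 1 CPM. Capitals mark the motif letters, every sequence runs 5′ to 3′ on the plus strand, and no motif overlaps another.
*Mmp13*, chr9:7272364-7272513: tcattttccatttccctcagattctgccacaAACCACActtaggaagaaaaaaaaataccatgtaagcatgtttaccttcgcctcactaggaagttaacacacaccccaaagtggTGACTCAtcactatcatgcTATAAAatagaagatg
*Mmp3*, chr9:7445672-7445821: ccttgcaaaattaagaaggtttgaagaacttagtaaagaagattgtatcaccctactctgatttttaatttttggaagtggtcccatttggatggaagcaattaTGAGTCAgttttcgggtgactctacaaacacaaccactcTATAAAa
*Mmp10*, chr9:7502192-7502341: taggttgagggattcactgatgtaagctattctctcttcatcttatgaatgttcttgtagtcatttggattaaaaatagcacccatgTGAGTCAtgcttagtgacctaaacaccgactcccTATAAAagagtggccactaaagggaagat
*Mmp8*, chr9:7558279-7558428: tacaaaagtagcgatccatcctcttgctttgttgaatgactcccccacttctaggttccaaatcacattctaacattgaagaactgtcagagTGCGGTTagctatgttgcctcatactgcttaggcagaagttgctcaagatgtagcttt
*Mmp27*, chr9:7571246-7571395: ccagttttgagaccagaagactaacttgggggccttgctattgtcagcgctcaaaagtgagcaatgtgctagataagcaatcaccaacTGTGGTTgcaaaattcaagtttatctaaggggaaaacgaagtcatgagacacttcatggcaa
*Mmp7*, chr9:7691940-7692089: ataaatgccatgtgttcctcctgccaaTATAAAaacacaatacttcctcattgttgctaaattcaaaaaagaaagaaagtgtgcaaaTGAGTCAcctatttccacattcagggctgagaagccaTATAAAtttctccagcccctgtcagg

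Of the 6, *Mmp13* was the only promoter printed here with all 3 motifs, its RUNX letters being on the minus strand and therefore read as AACCACA. *Mmp3*, *Mmp10* and *Mmp7* held the AP-1 and TATA letters as well, while *Mmp8* and *Mmp27* held the RUNX letters and neither of the others. *Mmp7* had a second entry, whose window held the RUNX letters, and *Mmp12* had 2 entries, of which only the one from 7347224 to 7347373 held the AP-1 letters. Genes with the same letters differed in level. Per kilobase of exon, *Mmp13*, the collagenase of hypertrophic cartilage and bone cells, had a mean level of 337 CPM per kb over the 6 libraries. *Mmp8*, the collagenase stored by neutrophils, had 67.7 CPM per kb. The other 7 cluster genes stayed at or below 0.361 CPM per kb, which was the level of *Mmp3*. *Mmp27* starts 2.91 kb after the end of *Mmp8* and had a mean level of 0.336 CPM per kb. The plot of levels along the cluster shows the 2 tall genes separated by short ones.

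**Figure D1:**
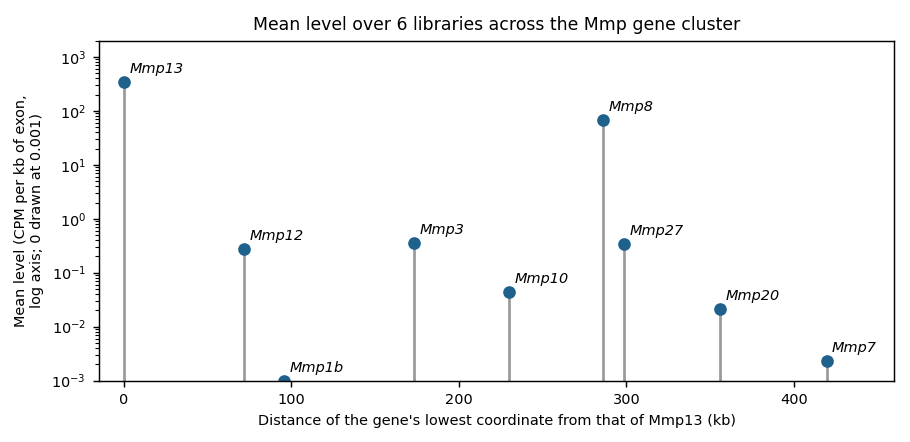
Mean level over the 6 libraries (vertical axis, CPM per kb of exon, log scale, 0 drawn at 0.001) of the 9 cluster genes against the distance of each gene's lowest coordinate from that of *Mmp13* (horizontal axis, kb). *Mmp13* at 337 and *Mmp8* at 67.7 CPM per kb stand above 7 neighbors at 0.361 or less.

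Across the whole set, 11 genes had a mean of at least 100 CPM, 28 had at least 10 CPM and 12 were under 1 CPM. *Mmp1b* had 0 counts in all 6 libraries, which allows 0.0450 to 0.0630 CPM per library (3 counts, counting error only), and 40 of the 45 genes had a count in every library. Per kilobase of exon the highest mean levels were those of *Mmp13* (337 CPM per kb), *Mmp9* (234), *Mmp2* (199), *Timp2* (103), *Mmp14* (82.0), *Mmp8* (67.7), *Adamts2* (57.4) and *Timp1* (50.9). *Mmp13*, *Mmp9*, *Mmp2* and *Mmp14* together made 87.6% of the summed CPM of the *Mmp* genes. *Adamts2* and *Adamts10* made 61.1% of the *Adamts* sum.

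**Figure D2:**
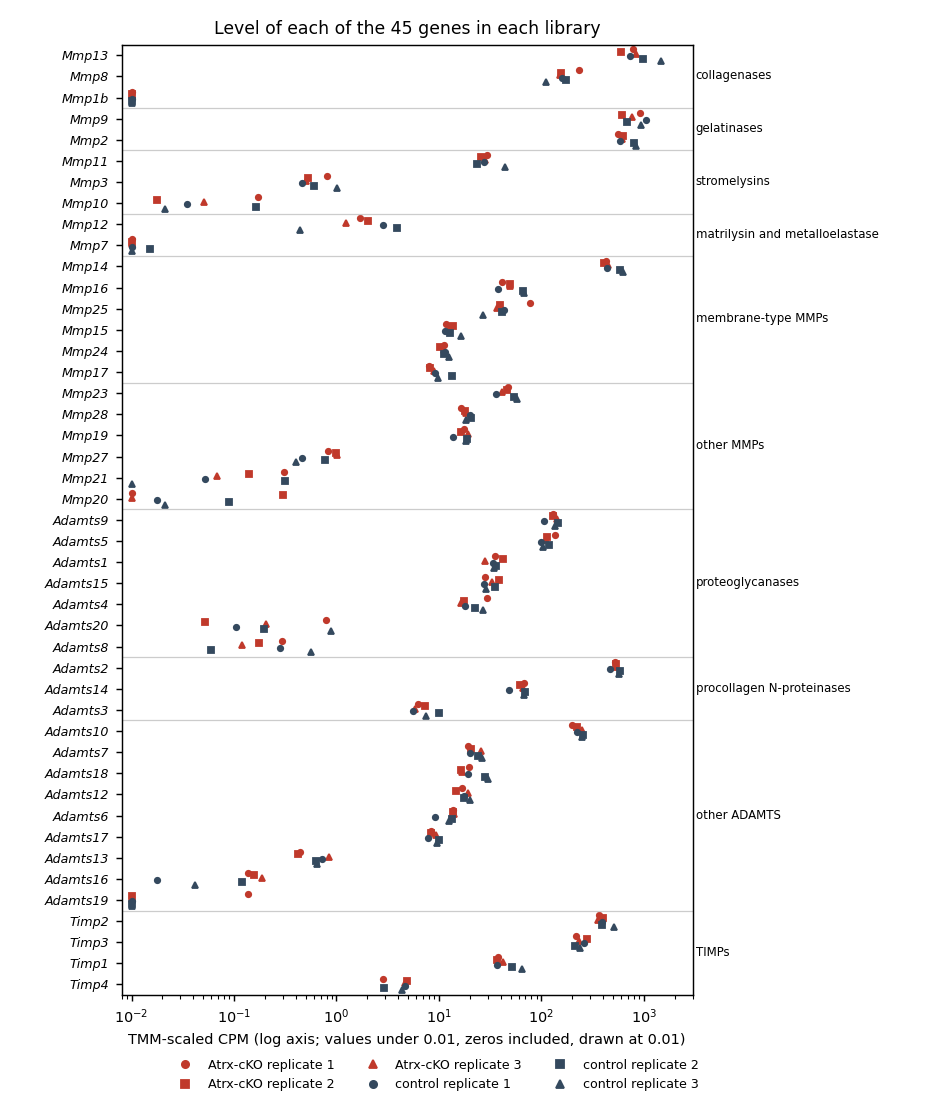
Level of each of the 45 genes in each library (horizontal axis, TMM-scaled CPM, log scale, values under 0.01 drawn at 0.01), grouped by role. Red points are the 3 Atrx-cKO and dark points the 3 control libraries. The genotypes do not overlap in 3 of the 38 genes tested, *Mmp27*, *Adamts6* and *Mmp17*, and levels run from 0 counts (*Mmp1b*) to 1481 CPM (*Mmp13*).

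The comparison of the genotypes asks whether the protease and inhibitor genes of the tibia differ where *Atrx* is deleted in osteoblast progenitors. Of the 38 genes that passed the expression filter, 0 passed an adjusted p of 0.05 in edgeR (quasi-likelihood test, Benjamini-Hochberg adjustment over all genes), in either direction and with or without a fold threshold. Over all 20636 genes tested, 0.0145% were called higher and 0% lower at that adjusted p when a log2 fold change of 1 or more in size was also required. The adjusted p of the 38 genes ran from 0.992 to 0.997. DESeq2 also called 0 of them, against 0.0424% higher and 0.0551% lower of the genes it gave an adjusted p. At an unadjusted p under 0.05, *Mmp14* and *Adamts18* were lower (5.26% of the 38, against 2.05% of all genes) and 0 genes were higher (against 1.59%).

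The 7 genes that did not pass the filter were *Mmp1b*, *Mmp7*, *Mmp10*, *Mmp20*, *Mmp21*, *Adamts16* and *Adamts19*. All of them were at or under 0.315 CPM in every library. *Adamts16*, named here after its values were seen, had 0.137, 0.158 and 0.187 CPM in Atrx-cKO replicates 1, 2 and 3 against 0.0175, 0.120 and 0.0420 CPM in the controls, which did not overlap. The raw counts were 8, 9 and 11 against 1, 8 and 2, so the genotypes met at 8 counts and were apart only after scaling. Control replicates 1 and 3 were under 3 counts. Of all genes tested, which do not include *Adamts16*, 4.3% were entirely higher in Atrx-cKO. DESeq2, which kept it, gave a log2 fold change of 1.39 (unadjusted p = 0.188, DESeq2 adjusted p above 0.99).

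The log2 fold change (Atrx-cKO over control) was below 0 in 26 of the 38 genes, or 68.4%, against 48.8% of all genes tested. Its median was -0.12 over the 38 genes and 0.0050 over all genes. That count rests on the control libraries, since it was 19 of 38 without control replicate 3 and 30 of 38 without control replicate 1. Scaling by library size alone put the median of all genes at 0.077 and left 25 of the 38 genes below 0, against 32.1% of all genes. The genotypes did not overlap in 3 of the 38 genes, 2 of them higher and 1 lower in Atrx-cKO, where 4.3% of all genes were entirely higher and 4.01% entirely lower. They were *Mmp27* and *Adamts6* on the higher side and *Mmp17* on the lower side. The log2 span of the 3 controls was larger than the log2 fold change itself in 36 of the 38 genes, against 80.7% of all genes.

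**Figure D3:**
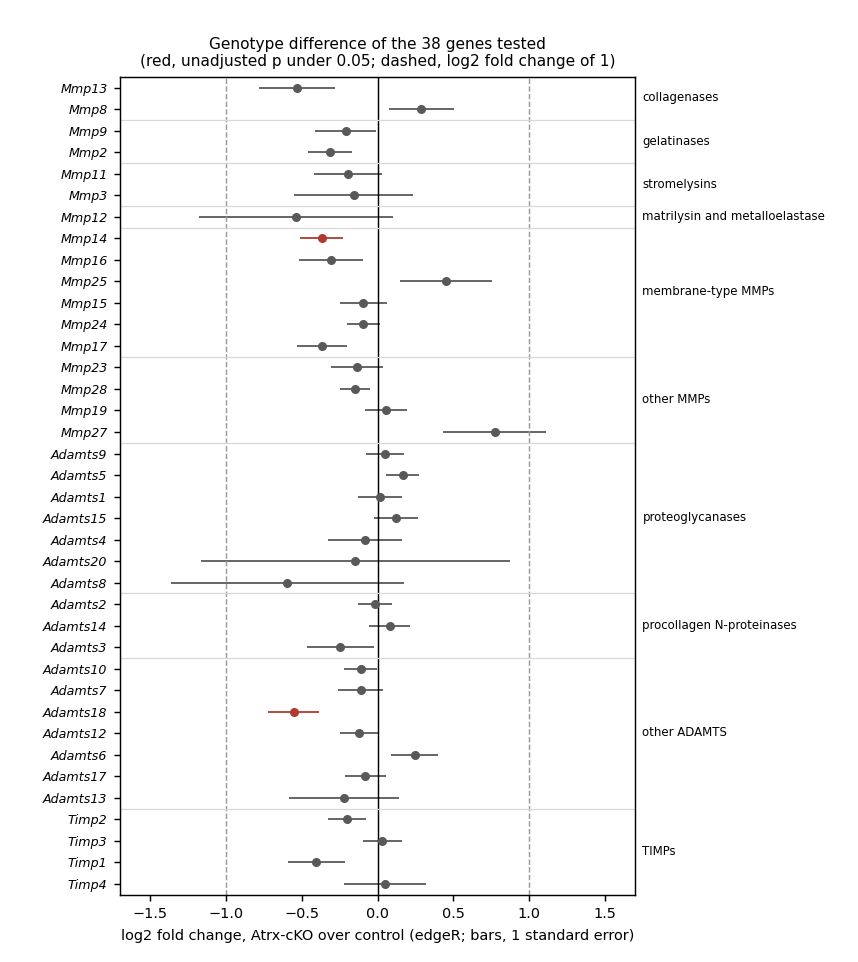
Log2 fold change of Atrx-cKO over control (horizontal axis, points, with bars of 1 standard error derived from the edgeR F statistic) for the 38 genes tested, grouped by role. All points lie between the dashed lines at -1 and 1, most lie left of 0, and *Mmp14* and *Adamts18* (red) are those with an unadjusted p under 0.05.

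Among the collagenases, *Mmp13* is made by osteoblasts, osteocytes and hypertrophic chondrocytes. *Mmp13* had 783, 595 and 832 CPM in Atrx-cKO replicates 1, 2 and 3 and 741, 978 and 1481 CPM in control replicates 1, 2 and 3. Control replicates 2 and 3 lay above every Atrx-cKO library and control replicate 1 lay among them. The log2 fold change was -0.53 (standard error 0.25, unadjusted p = 0.068, adjusted p = 0.992 in edgeR). Without control replicate 3 it was -0.24, so this library carried much of the difference. *Mmp8* had 235, 154 and 153 CPM in Atrx-cKO and 159, 172 and 112 CPM in control libraries, with Atrx-cKO replicate 1 high and control replicate 3 low. Its log2 fold change was 0.29 (standard error 0.22), and 0.053 without Atrx-cKO replicate 1.

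The gelatinases cut denatured collagen and basement membrane, *Mmp9* being a product of osteoclasts and neutrophils and *Mmp2* of mesenchymal cells. *Mmp9* had 925, 616 and 760 CPM in Atrx-cKO and 1044, 679 and 940 CPM in control libraries, which overlapped throughout. *Mmp2* had 557, 628 and 611 CPM in Atrx-cKO and 590, 810 and 835 CPM in control libraries. As for *Mmp13*, control replicates 2 and 3 were above all Atrx-cKO libraries and control replicate 1 was not. The log2 fold changes were -0.21 (standard error 0.20) for *Mmp9* and -0.32 (standard error 0.14, unadjusted p = 0.062) for *Mmp2*.

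Membrane-type MMPs act at the cell surface, and *Mmp14* (MT1-MMP) activates the *Mmp2* proenzyme with the help of TIMP2. *Mmp14*, on chromosome 14 from 54431612 to 54445364 of GRCm38, had 424, 406 and 449 CPM in Atrx-cKO and 437, 590 and 625 CPM in control libraries. Control replicate 1 again lay inside the Atrx-cKO range. The log2 fold change was -0.37 (standard error 0.14, unadjusted p = 0.033, adjusted p = 0.992 in edgeR), from 427 ± 21.3 CPM (SD, n = 3) in Atrx-cKO against 551 ± 99.96 CPM (SD, n = 3) in control tibias. *Mmp16* (MT3-MMP) repeated the arrangement at a lower level, with 40.9, 48.9 and 49.0 CPM in Atrx-cKO and 37.8, 65.8 and 68.2 CPM in control libraries. *Mmp17*, a form held by a lipid anchor and named here after its values were seen, had 7.99, 8.14 and 8.86 CPM in Atrx-cKO and 9.13, 13.3 and 9.75 CPM in control libraries. All 3 Atrx-cKO values were below all 3 controls, with a log2 fold change of -0.37 (standard error 0.17, unadjusted p = 0.059), which was -0.18 without control replicate 2.

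*Mmp25*, the lipid-anchored MMP of neutrophils, had 77.1, 39.2 and 37.1 CPM in Atrx-cKO and 43.1, 41.7 and 27.1 CPM in control libraries. Atrx-cKO replicate 1 stood above the other 5 libraries, and without it the log2 fold change of 0.45 (standard error 0.30) became 0.031. *Mmp15* had 11.8, 13.8 and 12.6 CPM in Atrx-cKO and 11.5, 12.7 and 16.6 CPM in control libraries. *Mmp24* had 11.3, 10.2 and 11.3 CPM in Atrx-cKO and 11.3, 11.3 and 12.4 CPM in control libraries. Neither gene separated the genotypes, and 637 exonic bases of *Mmp24* are shared with *BC029722* on the opposite strand. The membrane-type group as a whole had a median log2 fold change of -0.20 over 6 genes.

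The stromelysins and the metalloelastase were low apart from *Mmp11*, a stromelysin activated inside the cell by furin. *Mmp11* had 29.7, 25.7 and 27.9 CPM in Atrx-cKO and 27.4, 23.5 and 44.6 CPM in control libraries, with control replicate 3 alone high. *Mmp11* shares 155 exonic bases with *Chchd10*, a mitochondrial protein gene on the opposite strand, which was at 47.2 CPM in control replicate 3 and at 16.6 to 24.9 CPM elsewhere. The same library had the high skeletal muscle markers, and their part in the *Mmp11* value was not tested. Without it the log2 fold change of *Mmp11* went from -0.20 to 0.11. *Mmp3* ranged from 0.456 to 1.01 CPM, and *Mmp12*, the macrophage elastase, from 0.441 CPM in control replicate 3 to 3.93 CPM in control replicate 2, so that its extremes were both controls.

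The remaining MMPs tested were *Mmp23*, *Mmp28*, *Mmp19* and *Mmp27*. *Mmp23*, which lacks the usual cysteine switch, had 46.9, 46.7 and 40.9 CPM in Atrx-cKO and 35.9, 54.2 and 57.5 CPM in control libraries. *Mmp28* (epilysin) had 16.5, 18.0 and 18.6 CPM in Atrx-cKO and 20.1, 20.5 and 18.2 CPM in control libraries, and *Mmp19* had 17.6, 16.4 and 19.2 CPM against 13.9, 19.0 and 18.4 CPM. All of these overlapped. *Mmp27* had 0.821, 0.998 and 1.002 CPM in Atrx-cKO and 0.456, 0.781 and 0.399 CPM in control libraries, so that every Atrx-cKO library was above every control. Its log2 fold change of 0.77 (standard error 0.34, unadjusted p = 0.055, adjusted p = 0.992 in edgeR) was the largest of the 38 in size, at a level of 19 to 59 counts per library.

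Among the ADAMTS proteases, *Adamts2*, *Adamts14* and *Adamts3* remove the aminopropeptide of fibrillar procollagens. *Adamts2* had 524, 540 and 534 CPM in Atrx-cKO and 464, 585 and 569 CPM in control libraries, and *Adamts14* had 68.3, 61.8 and 66.9 CPM against 48.9, 69.8 and 67.7 CPM. In both genes the Atrx-cKO libraries were close together and control replicate 1 was lowest of the 6. The log2 fold changes were -0.017 (standard error 0.11) and 0.080 (standard error 0.14). *Adamts3* was lower in level, at 5.61 to 9.92 CPM, and overlapped between genotypes.

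The proteoglycanases cut aggrecan, versican and related core proteins. *Adamts9* had 130, 130 and 141 CPM in Atrx-cKO and 105, 145 and 136 CPM in control libraries. *Adamts5*, a main aggrecanase of mouse cartilage, had 135, 113 and 111 CPM in Atrx-cKO and 98.4, 118 and 104 CPM in control libraries. The genotypes overlapped in both, with log2 fold changes of 0.051 (standard error 0.12) and 0.17 (standard error 0.11). *Adamts1*, which lies 53.1 kb from *Adamts5* on chromosome 16, had 35.7, 42.1 and 27.9 CPM in Atrx-cKO and 33.5, 36.1 and 34.9 CPM in control libraries. *Adamts15* had 28.2, 39.0 and 32.8 CPM against 27.5, 35.4 and 28.9 CPM. *Adamts4* had 29.6, 17.6 and 16.3 CPM against 18.0, 22.6 and 26.8 CPM, the highest value being that of Atrx-cKO replicate 1. *Adamts8* and *Adamts20* stayed under 1 CPM in every library. In this group 3 of 7 genes were below 0 and the median log2 fold change was 0.014, on either side of 0 when each library was left out in turn (-0.075 to 0.12).

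Several of the other ADAMTS genes act on microfibrils or cartilage matrix. *Adamts10*, a fibrillin-binding protease, had 199, 225 and 250 CPM in Atrx-cKO and 222, 253 and 252 CPM in control libraries. *Adamts7* and *Adamts12*, which cut cartilage oligomeric matrix protein, overlapped between genotypes. *Adamts7* had 19.1, 20.5 and 25.9 CPM in Atrx-cKO and 20.3, 23.9 and 26.4 CPM in control libraries. *Adamts12* had 16.9, 14.7 and 19.2 CPM against 17.6, 17.5 and 20.2 CPM. *Adamts17* ranged from 7.85 to 10.1 CPM and *Adamts13*, the protease of von Willebrand factor, from 0.420 to 0.849 CPM.

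*Adamts18*, on chromosome 8 from 113697126 to 113848738 of GRCm38, had the smallest unadjusted p of the 38 genes. It had 19.5, 16.4 and 16.9 CPM in Atrx-cKO and 19.4, 28.1 and 30.1 CPM in control libraries, so that control replicate 1 was close to the highest Atrx-cKO library. The log2 fold change was -0.55 (standard error 0.17, unadjusted p = 0.012, adjusted p = 0.992 in edgeR and 0.309 in DESeq2). Leaving out each library in turn kept it between -0.72 and -0.45 in edgeR. *Adamts6*, a relative of *Adamts10*, had 13.9, 13.8 and 14.1 CPM in Atrx-cKO and 9.13, 13.4 and 12.6 CPM in control libraries. All 3 Atrx-cKO values were above the controls, though control replicate 2 was close to them, and the log2 fold change of 0.24 (standard error 0.15) was 0.093 without control replicate 1.

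The inhibitors were led by *Timp2*, with 367, 403 and 355 CPM in Atrx-cKO and 394, 391 and 508 CPM in control libraries. *Timp1*, on chromosome X like *Atrx*, had 38.04, 36.8 and 42.0 CPM in Atrx-cKO and 37.1, 52.3 and 65.1 CPM in control libraries. Control replicates 2 and 3 were above all Atrx-cKO libraries, and the log2 fold change was -0.40 (standard error 0.19, unadjusted p = 0.064), which was -0.21 without control replicate 3. *Timp3*, the inhibitor that binds to matrix and also blocks aggrecanases, had 217, 280 and 232 CPM in Atrx-cKO and 262, 212 and 239 CPM in control libraries, a log2 fold change of 0.032 (standard error 0.13). *Timp4* ranged from 2.84 to 4.90 CPM and overlapped between genotypes.

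All 4 *Timp* genes overlap another protein-coding gene, and *Timp1*, *Timp3* and *Timp4* each lie within a synapsin gene on the opposite strand. *Timp3* shares 1733 exonic bases with *Syn3*, a neuronal gene, which was counted at 90.9 to 132 CPM. The ratio of *Syn3* to *Timp3* was between 0.429 and 0.474 in all 6 libraries, and how much of either count belongs to the other gene cannot be told from a table of totals. *Syn1*, which shares no exonic base with *Timp1*, was at 3.12 to 3.97 CPM. In all, 13 of the 45 genes overlap a protein-coding gene and 11 share exonic bases with it. The labels call the libraries strand specific, but how the counting used strand is not given in the sources used here, so the values of those 11 genes are less certain.

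Summed over each family, the *Mmp* genes came to 3188, 2630 and 3032 CPM in Atrx-cKO and 3186, 3498 and 4267 CPM in control libraries. The *Adamts* sum was 1236, 1250 and 1272 CPM against 1099, 1369 and 1327 CPM, and the *Timp* sum was 625, 725 and 633 CPM against 698, 658 and 817 CPM. The Atrx-cKO mean of the *Mmp* sum was 2950 ± 288 CPM (SD, n = 3) and the control mean 3650 ± 556 CPM (SD, n = 3), and control replicate 1 was level with Atrx-cKO replicate 1. The ratio of the *Mmp* to the *Timp* sum was 5.10, 3.63 and 4.79 in Atrx-cKO and 4.57, 5.32 and 5.22 in control libraries, which overlapped.

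The arrangement of *Mmp13*, *Mmp2* and *Mmp14*, with control replicates 2 and 3 above every Atrx-cKO library and control replicate 1 not, held for 11 of the 38 genes, or 28.9%, against 10.2% of all genes. The others were *Mmp16*, *Mmp23*, *Adamts2*, *Adamts3*, *Adamts10*, *Adamts17*, *Adamts18* and *Timp1*. Control replicate 1 was the lowest control in 24 of the 38 genes, against 38% of all genes. Both counts were chosen after the values were seen, and *Mmp13*, *Mmp2* and *Mmp14*, which set the arrangement, are among the 11. The shares therefore describe these libraries and are no test. The sum of the osteoblast markers was arranged in the same way, at 63313, 63713 and 64016 CPM in Atrx-cKO and 58843, 100859 and 90235 CPM in control libraries, mostly *Col1a1*. Not every marker was so arranged. *Bglap2* was at 803 CPM in control replicate 3, below Atrx-cKO replicates 2 and 3 (885 and 1000 CPM). *Ibsp* was at 1307 CPM in control replicate 1, above every Atrx-cKO library. Tendon and fibrous tissue markers summed to 594, 552 and 462 CPM against 594, 737 and 1142 CPM. Chondrocyte markers, mostly *Col2a1*, summed to 1169, 802 and 1057 CPM in Atrx-cKO and 1091, 1594 and 1607 CPM in control libraries. In that sum too, control replicates 2 and 3 were above every Atrx-cKO library and control replicate 1 was not. Of the 8 chondrocyte markers tested, 3 had a log2 fold change below 0 (against 48.8% of all genes). Relative to the osteoblast sum, *Mmp14* was at 6.70, 6.38 and 7.01 CPM per 1000 marker CPM in Atrx-cKO and at 7.43, 5.85 and 6.93 in control libraries. The genotypes overlapped on that scale for *Mmp13*, *Mmp14*, *Mmp2*, *Mmp16*, *Adamts18* and *Timp1*, and still did when *Col1a1* was left out of the sum. All of these genes also overlapped in CPM, so the overlap does not show an effect of the scaling. The part of osteoblast, chondrocyte or fibrous tissue content in these values was not tested.

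**Figure D4:**
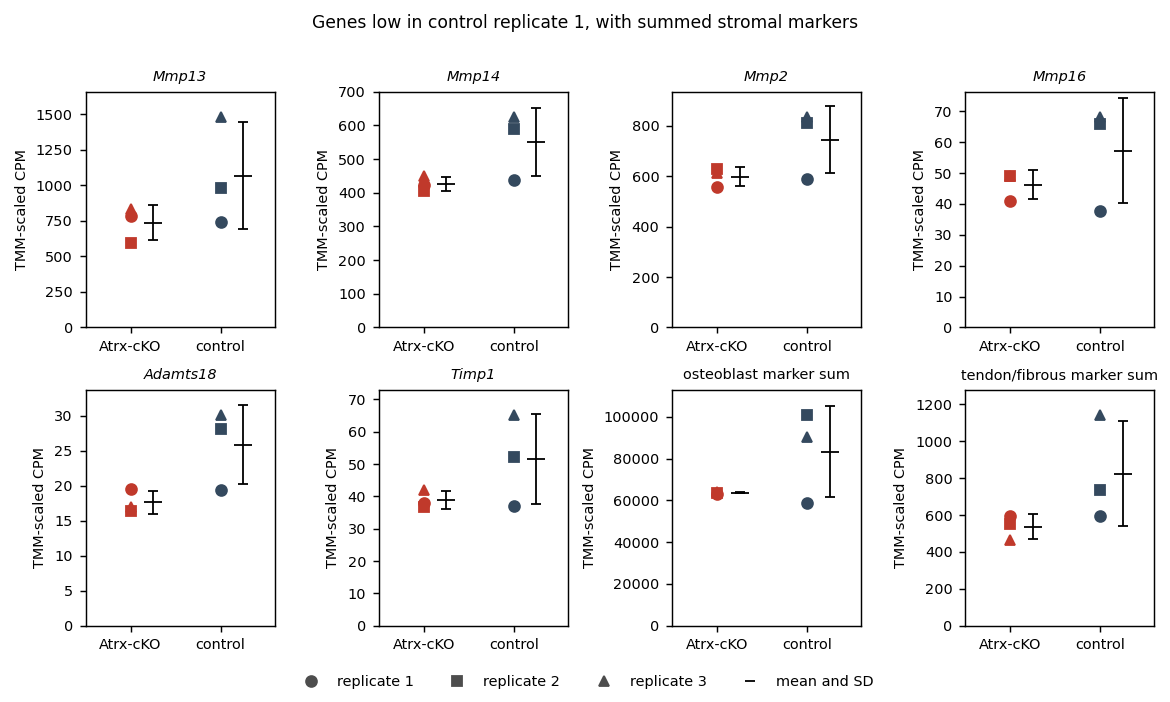
Levels (vertical axes, TMM-scaled CPM, from 0) of *Mmp13*, *Mmp14*, *Mmp2*, *Mmp16*, *Adamts18* and *Timp1* and the summed osteoblast and tendon or fibrous tissue markers, per library and genotype, with the mean and SD of 3 libraries. In the gene panels control replicates 2 and 3 lie above the Atrx-cKO libraries while control replicate 1 (circle) lies among them or below, as in the osteoblast panel.

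The test results of these genes depended on the libraries included. In a DESeq2 fit without control replicate 1, added after the data were seen, 6 of 34 genes (17.6%) had an adjusted p under 0.05 and were lower in Atrx-cKO, against 1.88% of all genes, and 0 of them reached a log2 fold change of 1 in size, against 0.271% of all genes that passed both limits as lower. They were *Mmp13*, *Mmp2*, *Mmp14*, *Mmp16*, *Adamts18* and *Timp1*, with log2 fold changes from -0.74 (*Mmp13*) to -0.46 (*Mmp2*). For *Mmp14* that fit gave -0.51 (standard error 0.093, DESeq2 adjusted p = 9.13e-06). In these 6 genes control replicate 1 was the control that was not above every Atrx-cKO library. In the DESeq2 fits that left out another library instead, and in the fit to all 6 libraries, 0 of the genes had an adjusted p under 0.05. The edgeR fit without control replicate 1 gave -0.51 for *Mmp14* with an adjusted p of 0.128, and in it 0 of the genes passed. In that edgeR fit 8 of 38 genes (21.1%) were lower at an unadjusted p under 0.05, against 5.59% of all genes. Over all 6 libraries, DESeq2 gave 6 of the 38 genes (15.8%) lower at an unadjusted p under 0.05. They were *Mmp13*, *Mmp2*, *Mmp14*, *Mmp17*, *Adamts18* and *Timp1*. The share was 1.69% of the 36262 genes to which DESeq2 gave a p. Those include genes too low for the expression filter that the 38 passed, so the 2 shares are not of like genes.

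The neutrophil genes *Mmp8* and *Mmp25* had another arrangement, highest in Atrx-cKO replicate 1 and lowest in control replicate 3. Neutrophil markers summed to 13493, 9707 and 9337 CPM in Atrx-cKO and 11062, 9296 and 7716 CPM in control libraries, with the same library highest and the same lowest. Relative to that sum, *Mmp8* was at 17.4, 15.9 and 16.3 CPM per 1000 marker CPM in Atrx-cKO and at 14.3, 18.6 and 14.5 in control libraries. *Mmp25* was at 5.71, 4.04 and 3.97 against 3.89, 4.49 and 3.51, and the genotypes overlapped for both. Osteoclast markers summed to 2232, 2128 and 2726 CPM in Atrx-cKO and 2944, 2177 and 3527 CPM in control libraries. Of these 9 markers, 8 had a log2 fold change below 0 (against 48.8% of all genes), with a median of -0.38, and 0 passed the adjusted test. *Itgb3*, a large part of the sum, was the marker above 0 (0.14). Relative to the osteoclast sum, *Mmp9* was at 415, 289 and 279 against 355, 312 and 267 CPM per 1000 marker CPM. Relative to the neutrophil sum, *Mmp9* was at 68.6, 63.4 and 81.4 in Atrx-cKO and at 94.4, 73.1 and 122 in control libraries. The means were 71.1 and 96.4, and the genotypes overlapped on both scales. The part of cell content in *Mmp8*, *Mmp25* and *Mmp9* was not tested.

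**Figure D5:**
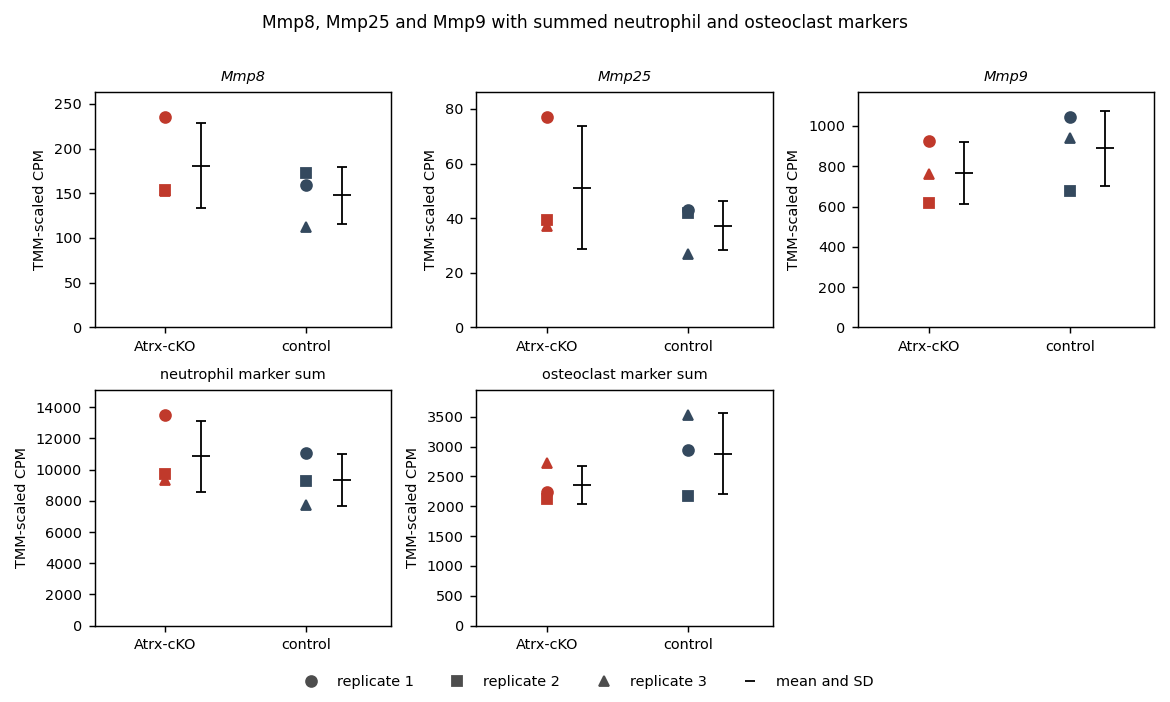
Levels (vertical axes, TMM-scaled CPM, from 0) of *Mmp8*, *Mmp25* and *Mmp9* and the summed neutrophil and osteoclast markers, per library and genotype, with the mean and SD of 3 libraries. Atrx-cKO replicate 1 (circle) is highest and control replicate 3 (triangle) lowest for *Mmp8*, *Mmp25* and the neutrophil markers, and *Mmp9* overlaps between genotypes.

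Genes that act with these proteases were read from 4 lists with 45 genes in all, of which 42 were tested. In edgeR 0 passed as higher and 0 as lower, against 0.0145% and 0% of all genes. At an unadjusted p under 0.05 there were 0 higher and 3 lower, against 1.59% and 2.05% of all genes. Activators, inhibitors and clearance receptors (14 of 16 tested) had a median log2 fold change of -0.054. Among them *Furin*, which activates membrane-type MMPs, was at 121 CPM in the Atrx-cKO mean and 129 CPM in the control mean, *Reck*, a membrane-bound MMP inhibitor, at 80.3 and 73.1 CPM, and *Lrp1*, an endocytic receptor for MMPs and TIMPs, at 776 and 803 CPM. ADAMTS-like proteins, which resemble the proteases without the catalytic domain, had a median of 0.068 over 7 genes, and ADAM sheddases one of 0.034 over 7.

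The matrix substrates had a median log2 fold change of -0.32, with 10 of 14 below 0 (against 48.8% of all genes), and the 3 genes at an unadjusted p under 0.05 were among them. *Col3a1*, a fibrillar collagen cut by collagenases, had 1386, 1368 and 1105 CPM in Atrx-cKO and 1335, 2260 and 2602 CPM in control libraries. *Col2a1*, the cartilage collagen, had 1074, 706 and 924 CPM in Atrx-cKO and 1018, 1504 and 1452 CPM in control libraries. *Bcan*, a lectican core protein, was under 10 CPM throughout. *Col3a1* and *Col2a1* thus had control replicate 1 among the Atrx-cKO libraries, as *Mmp13* and *Mmp14* did, and none passed the adjusted test (adjusted p = 0.992 in edgeR).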

How the data were processed

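Raw read counts per gene, 1 table per library, were used as the authors deposited them, without normalization. The submitters' processing notes name GRCm38 and DESeq2, and the aligner and counter are not given in the sources used here. The 5 summary entries of each table (56.2% to 57.2% of its counts) stayed out of library sizes and tests.

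Genes were named by GENCODE M21 (GRCm38), which held 55141 of the 55401 identifiers, and exon lengths are the union of its exons. Counts were fitted with edgeR 4.0.16 in R 4.3.3 (TMM, filterByExpr, genotype alone) with Benjamini-Hochberg adjustment over all 20636 genes, and a call needed a log2 fold change of 1 or more in size besides an adjusted p under 0.05. The standard errors of edgeR fits are the size of the log2 fold change divided by the square root of the quasi-likelihood F statistic. DESeq2 1.42.0, other scalings and filters, a replicate block and left-out libraries were alternatives. The fits were tested on simulated counts. With 3 against 3, an exact two-sided permutation test cannot go below 0.1.

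Members, gene lists and role groups were chosen with earlier results of these data known. Genes with a mean of at least 10 CPM, an unadjusted p under 0.05, or a log2 fold change of 0.5 or more in size with groups that did not overlap (29 genes) have values in every library. Other members are given by range, apart from *Mmp17* and *Adamts16*, and other genes come from the lists or overlap a member.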

Additional observations from a re-analysis of the deposited data

How the results depend on the processing

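In every setting 0 of the *Mmp*, *Adamts* and *Timp* genes were called at the limits on adjusted p and fold change. Over all genes, the 3 called higher became 10 with DESeq2, 1 with at least 10 counts in every library, 0 with the replicate block, 0 to 5 without each library in edgeR and 7 to 21 in DESeq2. The 0 called lower became 13 with DESeq2, 1 with no filter on low counts, 0 to 1 without each library in edgeR and 5 to 46 in DESeq2. The cause of these changes was not tested. The DESeq2 fits without each library and the scaling by library size alone were added once the data had been seen.

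The median log2 fold change of the 38 genes stayed below 0 in all settings, from -0.17 to -0.0045 without each library in edgeR or DESeq2. That of the stromelysins ran from -0.34 to 0.16 in those fits, its highest value being without control replicate 3. Those of the proteoglycanases (-0.075 to 0.12), the procollagen N-proteinases (-0.11 to 0.045) and the other MMPs (-0.10 to 0.044) also lay on both sides of 0. Same-numbered libraries deviated together with correlations of -0.0032, 0.11 and -0.100, so the numbers were not taken as pairs, and the replicate block gave 0 calls among all genes and changed the call of 0 members.

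Direction reversed for *Adamts2* with library size alone (0.062) and for *Adamts1* with the replicate block (-0.0040). In fits without each library, by edgeR or DESeq2, it also reversed for 15 genes. The log2 fold change then ranged from -0.092 to 0.11 for *Timp3*, -0.13 to 0.26 for *Timp4*, -1.04 to 0.012 for *Mmp12*, -0.20 to 0.062 for *Mmp15*, -0.074 to 0.14 for *Mmp19*, -0.37 to 0.12 for *Mmp11* and -0.40 to 0.20 for *Mmp3*. Among the *Adamts* genes it ranged from -0.11 to 0.045 for *Adamts2*, -0.067 to 0.17 for *Adamts14*, -0.075 to 0.14 for *Adamts9*, -0.14 to 0.16 for *Adamts1*, -0.013 to 0.24 for *Adamts15*, -0.40 to 0.071 for *Adamts4*, -1.60 to 1.19 for *Adamts20* and -1.11 to 0.20 for *Adamts8*. None of these genes was called in any setting. Of the 12 genes under 1 CPM, 7 did not pass the expression filter of edgeR.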
